A study of Oryza sativa Japonica Group and Oryza sativa Indica Group with 20 samples.

Results

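Root initiation and root patterning in rice are described here through 6 transcription regulators, followed from the embryo through tissue culture. The genes were chosen by their locus identifiers, which are LOC_Os03g05510 (CROWN ROOTLESS1, CRL1), LOC_Os07g03250 (CRL5), LOC_Os11g03110 and LOC_Os12g02870 (the SCARECROW genes SCR1 and SCR2), and LOC_Os07g39820 and LOC_Os03g31880 (the SHORT-ROOT genes SHR1 and SHR2). They are 6 of the 54170 loci with deposited values, and their identifiers place them on chromosomes 3, 7, 11, 12, 7 and 3 of the japonica reference IRGSP-1.0. RNA was taken at 5 stages from Tainung 67 (TNG67), which is a japonica rice, and from IR64, which is an indica rice. The stages were the embryo (T0), callus induced on medium that held the synthetic auxin 2,4-D at 2.5 mg/L (T1), callus subcultured on fresh medium of that kind (T2), and callus that regenerated (TS) or failed to regenerate (TF) after transfer to a medium that held the auxin NAA at 0.02 mg/L and the cytokinin BAP at 2 mg/L. Callus is proliferating plant tissue without organs. There were 10 RNA libraries, 1 for each cultivar at each stage, and the labels do not say how many embryos or cultures stood behind a library. The labelled tissues were not checked against marker genes, because the deposited table gives identifiers without gene names.

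Rice roots are mostly crown roots, which arise after germination from the base of the stem. CRL1 encodes a LOB-domain protein and CRL5 an AP2-domain protein of the PLETHORA type; both act downstream of auxin, and rice plants that lack either one form few or no crown roots. SHORT-ROOT and SCARECROW are GRAS-family regulators. In Arabidopsis, SHORT-ROOT is made in the central cylinder, moves one cell layer outward and there switches on SCARECROW, and the pair sets up the endodermis and keeps the root stem cells. In Arabidopsis, too, callus on auxin-rich medium forms through a programme that resembles the start of a lateral root.

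Values were FPKM, the number of fragments scaled to gene length and to the mapped fragments of the library, so levels can be compared between genes. All 6 genes passed the filter for testing (2 or more libraries at 1 FPKM or above), as did 22913 loci in all. The number of reads behind an FPKM value was unknown, so no counting error can be attached to the low values. Summed FPKM ran from 602209 to 1063007 in 9 libraries and was 3792962 in the IR64 embryo, where 1 locus was listed at exactly 3000000; without it that sum was 792962.

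In callus SHR1, SCR2 and SCR1 were the abundant members, and CRL1, CRL5 and SHR2 were scarce, except in the failed IR64 callus. There SCR1 (3.49 FPKM) was below CRL5 (3.63) and SHR2 (4.67). In the embryos CRL5 stood above SHR1 and SCR1. The TNG67 embryo values were 4.00 FPKM against 2.46 and 1.60, and the IR64 ones 10.9 against 9.31 and 6.11. In callus at T1, the SHR1 level was 42.6 FPKM for TNG67 and 38.4 for IR64, above 91.0% and 89.4% of the loci with a value above 0 in those libraries. SCR2 at T1 stood at 41.8 and 37.7 FPKM, above 90.8% and 89.1% of such loci. CRL1 never exceeded 1.47 FPKM in TNG67, and SHR2 never exceeded 1.52 there. The highest single values of the scarce genes were 10.9 FPKM for CRL5 in the IR64 embryo, 9.37 for CRL1 in IR64 at T1 and 5.27 for SHR2 in IR64 at T2. In bulk tissue such a level does not tell fewer expressing cells apart from less RNA per cell.

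**Figure D1:**
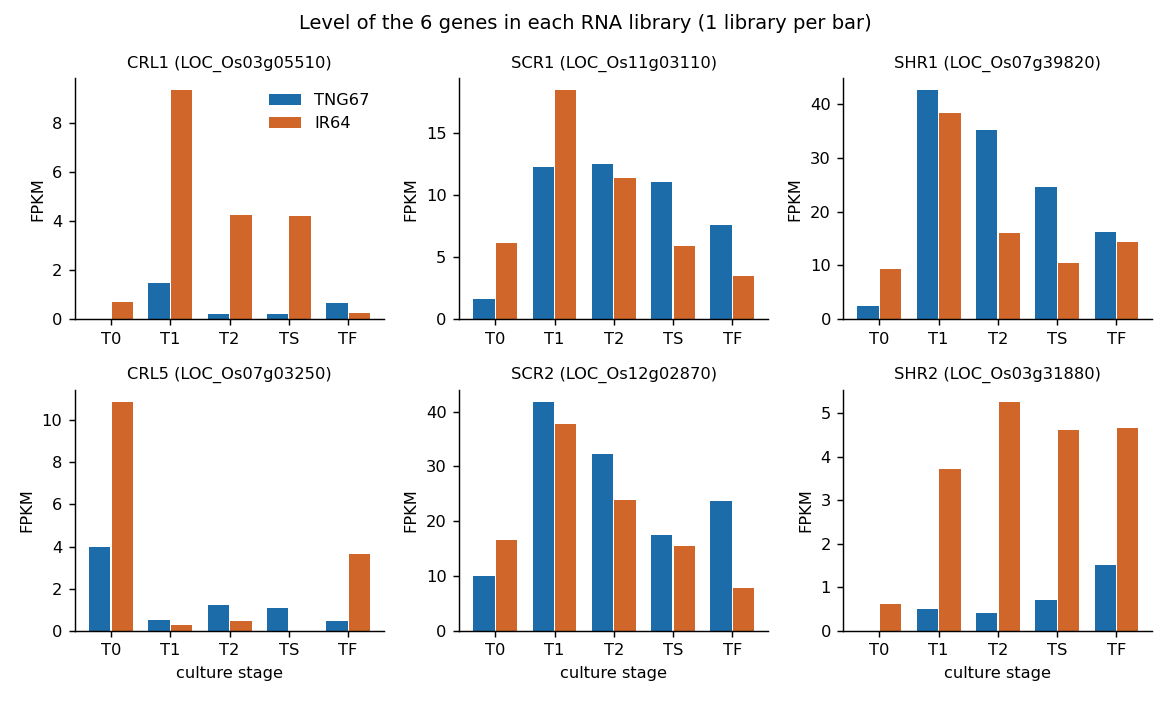
FPKM (vertical axis, a separate linear scale for each gene) of the 6 genes at the 5 culture stages, with 1 library per bar and no replicates. CRL5 was highest in the embryo in both cultivars, SHR1 and SCR2 were highest at T1 in both, and SHR2 was higher in IR64 at every stage.

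CRL1, the LOB-domain regulator that starts crown roots, was highest in newly induced callus in both cultivars. In TNG67 it was listed at 0 in the embryo and stood at 1.47 FPKM at T1, 0.198 at T2, 0.192 at TS and 0.655 at TF. In IR64 it stood at 0.703 FPKM in the embryo, 9.37 at T1, 4.27 at T2, 4.22 at TS and 0.260 at TF. The order of stages differed between the cultivars below T1, with the failed callus in second place in TNG67 and in last place in IR64. From T1 to T2 the level was 7.47-fold lower in TNG67 and 2.19-fold lower in IR64.

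CRL5, the AP2-domain regulator, was highest in the embryo in both cultivars. Its embryo level was 4.00 FPKM in TNG67 and 10.9 in IR64. In the TNG67 calli it lay between 0.485 FPKM at TF and 1.23 at T2, with 0.518 at T1 and 1.08 at TS. In the IR64 calli it was at 0.262 FPKM at T1, 0.488 at T2, a listed 0 at TS and 3.63 at TF. The embryo value of each cultivar was thus above all 4 of its callus values, and the IR64 failed callus came nearest to the embryo.

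SCR1 and SCR2 lie on chromosomes 11 and 12 and are close copies of each other. Only uniquely aligned reads were kept, per the labels, so reads that fit both copies were dropped and the split between the copies is uncertain. SCR2 stood at 9.99, 41.8, 32.3, 17.4 and 23.8 FPKM in TNG67 (T0, T1, T2, TS and TF) and at 16.5, 37.7, 23.9, 15.6 and 7.76 in IR64. SCR1 stood at 1.60, 12.3, 12.5, 11.0 and 7.58 FPKM in TNG67 and at 6.11, 18.5, 11.4, 5.88 and 3.49 in IR64. In TNG67 every callus was above the embryo for both genes, whereas in IR64 the TS and TF calli were below it.

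SHR1, the abundant SHORT-ROOT gene, was lowest in the embryo in both cultivars. It stood at 2.46, 42.6, 35.1, 24.6 and 16.1 FPKM in TNG67 (T0, T1, T2, TS and TF). In IR64 the values were 9.31, 38.4, 16.1, 10.4 and 14.4 FPKM. T1 was the highest stage in both cultivars, but the TS value of IR64 was within 1.12-fold of its embryo.

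SHR2 was also lowest in the embryo, but it did not peak at T1. In TNG67 it was listed at 0 in the embryo and stood at 0.499 FPKM at T1, 0.415 at T2, 0.709 at TS and 1.52 at TF. In IR64 it stood at 0.614 FPKM in the embryo, 3.71 at T1, 5.27 at T2, 4.61 at TS and 4.67 at TF. The calli ran from 3.71 to 5.27 FPKM in IR64 and from 0.415 to 1.52 in TNG67.

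With the cultivars averaged, the order of the stages was T1, T2, TS, TF and T0 for CRL1, SCR1, SCR2 and SHR1, but T0, TF, T2, TS and T1 for CRL5 and TF, TS, T2, T1 and T0 for SHR2. Of the 24 steps between neighbours in these orders, only the step between T1 and the embryo for SHR2 exceeded its 95% interval from limma, at 1.07 on the log2(FPKM + 1) scale with a half-width of 0.91. This interval is not adjusted for the number of steps, and limma's adjusted p for that difference was 0.083.

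Callus induction was the first comparison the design names, and it moved SHR1 and CRL5 in opposite directions. SHR1 rose by 2.80 on the log2(FPKM + 1) scale (SE 0.64, limma adjusted p = 0.0245), 17.4-fold in TNG67 and 4.12-fold in IR64. CRL5 fell by 2.48 (SE 0.69, limma adjusted p = 0.0432); the embryo was 7.71-fold higher than T1 in TNG67 and 41.5-fold higher in IR64. So 1 of the 6 genes was called higher, where 11.7% of all loci tested were called higher, and 1 was called lower, where 14.6% were. The other 4 genes had fitted changes of 1.96 for CRL1, 1.90 for SCR1, 1.55 for SCR2 and 1.07 for SHR2, with limma adjusted p of 0.0747, 0.0568, 0.0549 and 0.0825. With each library left out in turn these changes ran from 1.504 to 2.41 for CRL1, 1.01 to 2.79 for SCR1, 0.94 to 2.17 for SCR2 and 0.58 to 1.56 for SHR2. All 6 had an unadjusted p under 0.05, as did 40.9% of all loci tested. The median fitted change was 1.73 over the 6 genes and -0.0021 over all loci tested.

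These calls rest on few libraries, since limma takes the spread from how far the cultivars depart from a common stage effect and not from replicate cultures. The fitted change of SHR1 was 1.69 without the TNG67 embryo and 3.90 without the IR64 embryo, and that of CRL5 ran from -3.13 to -1.82 with libraries left out. The limma adjusted p of SHR1 became 0.107 without the TNG67 T1 library and 0.125 without IR64 T1, and that of CRL5 became 0.124 without TNG67 T1, 0.0658 without TNG67 T2, 0.157 without IR64 T0, 0.207 without IR64 T1 and 0.0657 without IR64 T2. Without either TF library 4 genes were called, with CRL1 (limma adjusted p = 0.0309 and 0.031) and SCR2 (0.0287 and 0.0285) added. SCR1 (limma adjusted p = 0.016) and SCR2 (0.0258) were also past the threshold without IR64 T0, and SHR2 (0.0316) without TNG67 T0. SCR2 was called too with a pseudocount of 5, at a mean of at least 5 FPKM and after quantile normalization (limma adjusted p = 0.0496, 0.0467 and 0.0452), SCR1 at a mean of at least 5 FPKM (0.0485) and SHR2 with a pseudocount of 0.1 (0.0169). SHR1 was no longer called without the filter on low values (limma adjusted p = 0.115), nor was CRL5 (0.186). CRL5 was also not called with a pseudocount of 0.1 (0.088) or without the replicate block (0.0672).

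**Figure D2:**
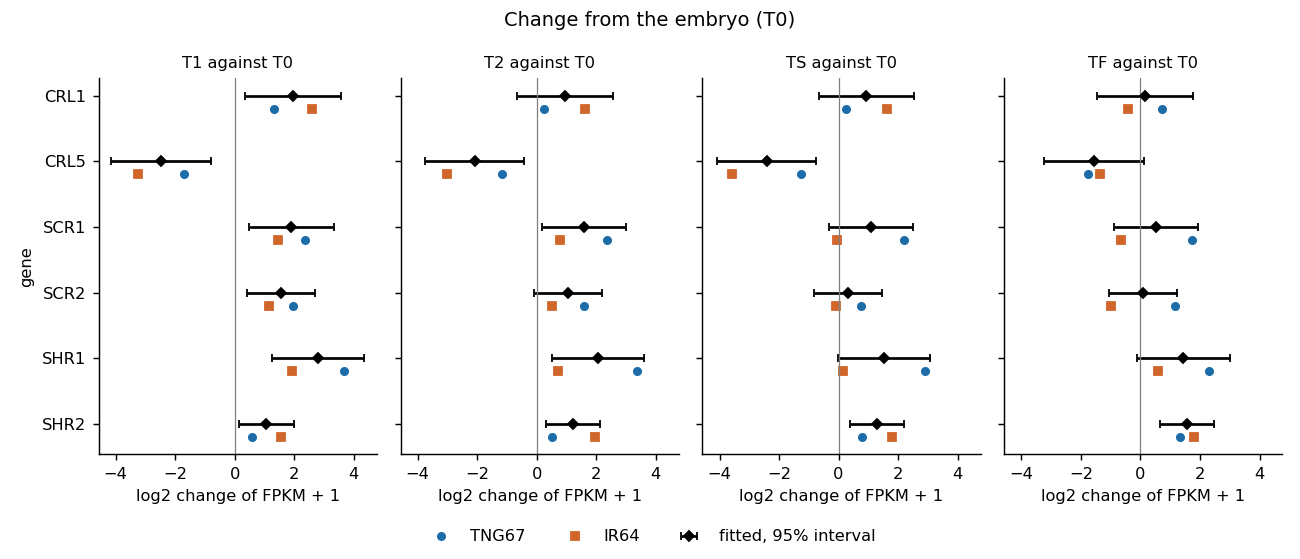
log2 change of FPKM + 1 from the embryo (horizontal axis) for each gene at T1, T2, TS and TF. Black diamonds are the fitted change common to both cultivars with its 95% interval from limma, not adjusted for multiple tests. Each coloured point is the change within a cultivar, from its single embryo library to its single library of that stage. The points of CRL5 lie left of 0 in all panels, and at TF the IR64 points of CRL1, SCR1 and SCR2 lie left of 0 while those of TNG67 lie right of it.

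In subcultured callus no member passed limma's test against the embryo, where 20.5% of all loci tested were called in either direction. Of the 6 genes, 4 had an unadjusted p under 0.05 (37.4% of all loci tested did). The fitted log2 change was 2.06 for SHR1 (limma adjusted p = 0.0677), 1.23 for SHR2 (0.0646) and -2.08 for CRL5 (0.079). SHR1 was still 14.3-fold above the embryo in TNG67, but 1.73-fold above it in IR64. Without the IR64 embryo SHR1 and SCR1 were called (limma adjusted p = 0.00965 and 0.0245), and SHR2 was called without the TNG67 embryo (0.0293) and with a pseudocount of 0.1 (0.0175).

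In regenerated callus (TS) again no member passed limma's test against the embryo, where 15.5% of all loci tested were called, and 2 of the 6 had an unadjusted p under 0.05 (33.5% of all loci tested). These were CRL5, with a fitted log2 change of -2.42 (limma adjusted p = 0.0632), and SHR2, with 1.29 (0.0672). SHR1 was 10.02-fold above the embryo in TNG67 and 1.12-fold above it in IR64. SCR1 was 6.91-fold above the embryo in TNG67 but at 0.962 times the embryo level in IR64. Without the IR64 embryo SHR1 and SCR1 were called (limma adjusted p = 0.018 and 0.0499), and SHR2 was called without the TNG67 embryo (0.0318) and with a pseudocount of 0.1 (0.0188).

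In failed callus (TF) SHR2 rose by 1.57 on the log2(FPKM + 1) scale (SE 0.38, limma adjusted p = 0.0363), which made 1 of 6 members called higher where 7.12% of all loci tested were; 0 of 6 were called lower where 11.2% were. SHR2 was 7.61-fold above the embryo in IR64. In TNG67 the embryo was listed at 0, so no fold is given and the fitted change depends on the pseudocount. Both embryo values of SHR2 were below 1 FPKM, so it passed the filter for testing only through the calli, where it was high. The call was lost when any 1 of the 8 callus libraries was left out, with limma adjusted p of 0.0567 to 0.188, and also without the IR64 embryo (0.0808), with a pseudocount of 5 (0.08), without the filter (0.136) and without the replicate block (0.392). SHR1 had a fitted log2 change of 1.44 (limma adjusted p = 0.161, but 0.0181 without the IR64 embryo). SCR1, SCR2 and CRL1 had fitted changes of 0.53, 0.086 and 0.15 (limma adjusted p = 0.553, 0.913 and 0.893), which average unlike values. SCR1 was 4.75-fold above the embryo in TNG67 and 1.75-fold below it in IR64, and SCR2 was 2.38-fold above and 2.13-fold below. All 4 comparisons with the embryo share the embryo libraries, so they are not independent of each other.

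The regenerated and the failed callus were on the same medium, and their comparison asks what went with the outcome. limma called none of the 6 members and 0.0% of all loci tested, with 0 members and 960 loci (4.19%) at an unadjusted p under 0.05; no other tool was run. In 4 of the 6 members the cultivars differed in the direction of this change, as they did at 44.5% of all loci tested. In IR64 CRL1 was 16.2-fold higher in regenerated than in failed callus, at 4.22 against a low 0.260 FPKM. On the FPKM + 1 scale 99.6% of the loci tested had a lower change between these libraries. In TNG67 CRL1 was 3.42-fold lower in regenerated than in failed callus, at values below 1 FPKM. CRL5 was listed at 0 in the regenerated IR64 callus against 3.63 FPKM in the failed one, and in TNG67 it stood at 1.08 against 0.485. SCR2 was 2.01-fold higher in regenerated callus in IR64 and 1.36-fold lower in TNG67. SCR1 was the only one of the 6 that was higher in regenerated callus in both cultivars, by 1.46-fold in TNG67 and 1.69-fold in IR64. SHR2 was lower in both, by 2.15-fold in TNG67, while the IR64 values of 4.61 and 4.67 FPKM were nearly the same. On the FPKM + 1 scale, 1 member (CRL1) was at least 4-fold higher and 1 (CRL5) at least 4-fold lower in IR64, where 0.441% and 2.68% of all loci tested were; in TNG67 no member reached either limit, where 0.602% and 2.43% of loci did. With a pseudocount of 5, 0 members were at least 4-fold apart in IR64. With 1 library for each outcome and cultivar the differences between TS and TF have no replicate check.

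Longer time on 2,4-D medium was compared between T2 and T1. limma called 0 members and 0.0% of loci, with 0 members and 653 loci (2.85%) at an unadjusted p under 0.05. CRL1 had a fitted log2 change of -1.01 (95% interval -2.62 to 0.60), SHR1 of -0.74 (-2.29 to 0.81) and SCR2 of -0.50 (-1.64 to 0.64), and all 3 were lower at T2 in both cultivars. CRL5 was higher at T2 in both, by 2.37-fold in TNG67 and 1.86-fold in IR64, between values of at most 1.23 FPKM.

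The move from 2,4-D to the regeneration medium was compared by setting TS and TF together against T1 and T2; medium and time in culture cannot be told apart here. limma again called 0 members and 0.0% of loci, with 1 member and 2091 loci (9.13%) at an unadjusted p under 0.05. That member was SCR2, with a fitted log2 change of -1.09 (95% interval -1.90 to -0.29, limma adjusted p = 0.452). SHR1, SCR1 and CRL1 had fitted changes of -0.95, -0.94 and -0.91, and CRL5 and SHR2 of 0.29 and 0.28. The median fitted change was -0.92 over the 6 genes and 0.032 over all loci tested.

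Of the 6 genes, limma called only SHR2 between the cultivars. Its level was higher in IR64 at 5 of 5 stages, by 7.44-fold at T1, 12.7-fold at T2, 6.50-fold at TS and 3.06-fold at TF, with the TNG67 embryo listed at 0. The fitted log2 difference, TNG67 minus IR64, was -1.47 (SE 0.24, limma adjusted p = 0.00767), and the call held in all 20 alternatives in which SHR2 was tested, at adjusted p up to 0.0468. That made 1 of 6 members called higher in IR64, near the share of 13.3% over all loci tested. In TNG67 0 of 6 were called higher, where 14.0% of loci were. SHR2 reached 1 FPKM in every IR64 callus but in TNG67 only at TF. It therefore passed the filter for testing through IR64, the cultivar where it was high. CRL1 was also higher in IR64 at 4 of 5 stages, by 6.35-fold at T1, 21.6-fold at T2 and 22.03-fold at TS. At TF it was 2.52-fold higher in TNG67. The largest folds divide by low TNG67 values, 0.198 and 0.192 FPKM for CRL1 at T2 and TS and 0.415 for SHR2 at T2. On the log2(FPKM + 1) scale the CRL1 differences were -2.07, -2.14 and -2.13 at T1, T2 and TS. CRL1 reached 1 FPKM in IR64 at these stages but in TNG67 only at T1. As with SHR2, the filter for testing was passed through IR64, the cultivar where CRL1 was mostly higher. For CRL1 the fitted difference was -1.34 (SE 0.42, limma adjusted p = 0.0584). It was called after quantile normalization (limma adjusted p = 0.04). Without either TF library CRL1 was called too (limma adjusted p = 0.0169 in both cases). TF was the only stage at which CRL1 was higher in TNG67, so leaving a TF library out removes that opposing difference.

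The other 4 genes had fitted cultivar differences between -0.20 and 0.31 (limma adjusted p = 0.472 to 0.965). For SCR1, SCR2 and SHR1 the embryo level was 3.82-fold, 1.65-fold and 3.79-fold higher in IR64. At T2 and later TNG67 was the higher one at every stage, though in part by little. The smallest of these differences were 1.10-fold for SCR1 at T2, 1.12-fold for SCR2 at TS and 1.12-fold for SHR1 at TF. At T1 SCR1 was again higher in IR64, at 18.5 against 12.3 FPKM, and SCR2 and SHR1 were 1.11-fold higher in TNG67. SHR1 was 2.18-fold higher in TNG67 at T2 and 2.37-fold higher at TS. SCR2 was 3.06-fold higher in TNG67 at TF. The reference for mapping was japonica for TNG67 and IR64 alike, so a transcript level cannot be told apart from how well the reads of a cultivar map at a locus, and the 5 stages stand as the replicates of a cultivar in this test.

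**Figure D3:**
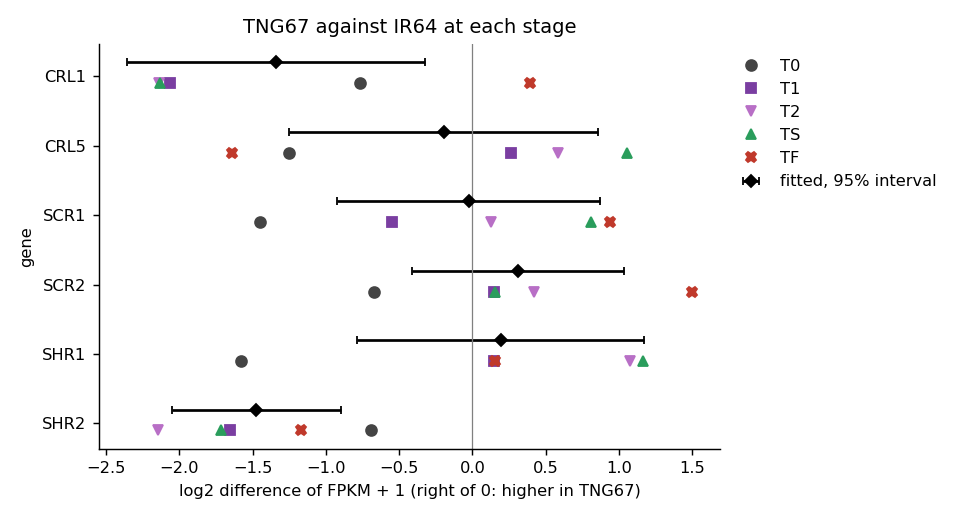
log2 difference of FPKM + 1 between TNG67 and IR64 (horizontal axis; right of 0 is higher in TNG67) for each gene, with 1 point per stage and, in black, the fitted difference with its 95% interval from limma, not adjusted for multiple tests. All 5 points of SHR2 lie left of 0, and CRL1 lies left of 0 except at TF.

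Within each pair 1 paralog had the higher FPKM in all 10 libraries. For the SCR pair these values come from uniquely aligned reads of close copies, so how the signal divides between SCR1 and SCR2 is uncertain. As deposited, SCR2 exceeded SCR1 by 1.58-fold in TNG67 at TS up to 6.25-fold in the TNG67 embryo. SCR1 made up 27.0% to 32.9% of the summed SCR FPKM in IR64 and 13.8% to 38.8% in TNG67. SHR1 exceeded SHR2 in all 10 libraries. SHR2 made up 0 to 8.63% of the summed SHR FPKM in TNG67 and 6.18% to 30.7% in IR64, where its share was 24.7%, 30.7% and 24.5% at T2, TS and TF.

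The log2 ratio of SHR1 to SHR2, on FPKM + 1, was 3.60 ± 1.31 (SD, n = 5 stages) in TNG67 and 1.93 ± 0.88 (SD, n = 5) in IR64. The difference of 1.67 had p = 0.0476 in a two-sided exact permutation test over libraries. After Benjamini-Hochberg adjustment over the 2 pairs p was 0.0952, so the difference did not pass. It restates the fitted cultivar differences of SHR1 (0.19) and SHR2 (-1.47) from the same 10 libraries and is no separate result. It passed with a pseudocount of 0.1, with a difference of 2.75 and an adjusted exact p of 0.0476. The difference was -0.89 in the embryo, where SHR2 was listed at 0 in TNG67, and 1.80, 3.23, 2.88 and 1.32 at T1, T2, TS and TF. With a pseudocount of 0.1 the embryo difference was 0.95. An exact test that kept the stages paired, by flipping signs within stage, gave p = 0.125, or 0.25 adjusted over the 2 pairs, and an unadjusted p of 0.0625 with a pseudocount of 0.1; it was added after the data were seen and cannot go below 0.0625. For SCR1 to SCR2 the ratios were -1.44 ± 0.54 and -1.11 ± 0.16 (SD, n = 5 each), a difference of -0.34 (exact permutation p = 0.222, and 0.222 adjusted; 0.25 by exact sign flips). Without the TNG67 TS library that difference was -0.54 (adjusted exact p = 0.0159). TS was the only stage at which the SCR1 to SCR2 difference was above 0, at 0.65, so this choice removes the opposing stage. The smallest p that 5 against 5 libraries allow is 0.00794, and the stages again stand as replicates.

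**Figure D4:**
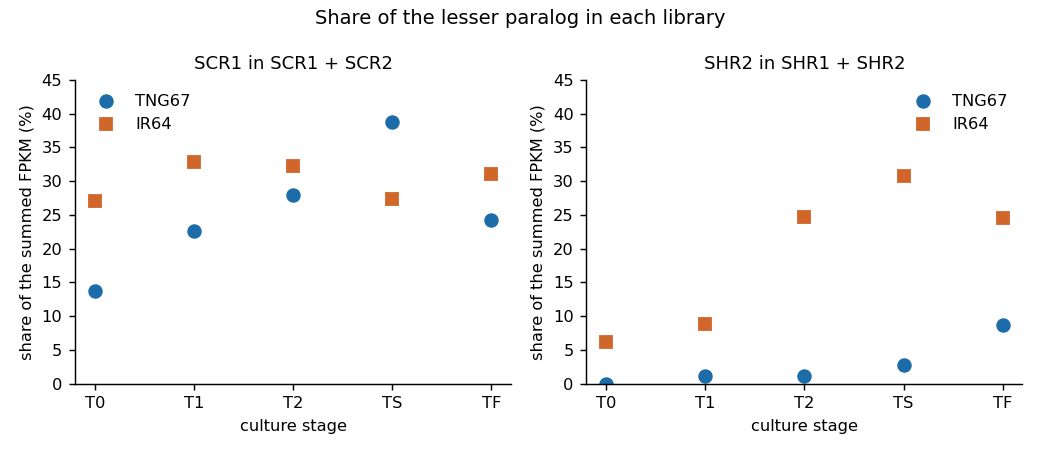
Share of the summed FPKM of each pair (vertical axis, percent) held by SCR1 (left) and SHR2 (right) at each culture stage, with 1 point per library. The IR64 share of SHR2 is above that of TNG67 at all 5 stages, and the TNG67 share of SCR1 is above that of IR64 at TS.

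The profiles of SCR1, SCR2 and SHR1 over the 10 libraries were alike, while those of CRL5 and SHR2 were unlike them. Pearson's r of log2(FPKM + 1) over the 10 libraries was 0.90 between SCR1 and SHR1, 0.88 between SCR1 and SCR2 and 0.78 between SCR2 and SHR1. SHR1 was more like SCR1 than 99.51% of the other 22912 loci tested were, and SCR2 was more like SCR1 than 98.96% were. SHR2 had r = 0.15 with SHR1, 0.19 with SCR1 and -0.083 with SCR2, and was closest to CRL1 among the members, at 0.68. CRL5 had r between -0.59 and -0.43 with the 5 other genes. Between 10.22% (for SCR2) and 31.62% (for SHR2) of loci were less like those genes than CRL5 was. The libraries share cultivars and stages, so these values describe the profiles and carry no p.

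Among loci that reached at least 10 FPKM in a library, the one most like each member over the 10 libraries was LOC_Os09g29870 for CRL1 (r = 0.98), LOC_Os06g09310 for CRL5 (0.98), LOC_Os02g04270 for SCR1 (0.97), LOC_Os01g55940 for SCR2 (0.96), LOC_Os05g02980 for SHR1 (0.99) and LOC_Os10g04860 for SHR2 (0.99). Each is the best of 14532 or 14533 loci compared, and these loci have no names in the deposited table. At T1 the level of LOC_Os01g55940 was 324 FPKM for TNG67 and 214 for IR64, against 19.0 and 34.5 in the embryos.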

How the data were processed

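Per the labels' protocols, the authors used FastQC for read quality and Bowtie for mapping to the Nipponbare reference IRGSP-1.0, kept unique alignments, and produced the deposited FPKM values per gene with TopHat. Versions, gene models and strand setting were not given in the sources used here. The table had 55166 rows for 54170 loci; rows of a locus were summed, and each of the 6 members had 1 row. Sequencing depth was unknown. Bisulfite data (10 libraries) were not used here.

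The test was limma 3.58.1 (R 4.3.3) on log2(FPKM + 1), which understates changes of low genes, with additive cultivar and stage terms, an intensity trend and Benjamini-Hochberg adjustment over the 22913 loci that had 2 or more libraries at 1 FPKM or above; calls are at 0.05. Same-cultivar libraries are paired by their label, so cultivar is the replicate block in the comparisons of stages. In the comparison of the cultivars the block is stage. The test was tried on simulated data. Python 3.11.15 with pandas 2.3.3, numpy 2.4.6, scipy 1.17.1 and matplotlib 3.10.9 did the rest.

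The members and tests were chosen with earlier results of these data known. All 6 members are named; for each, the most alike locus reaching 10 FPKM is named. The RefSeq table used here (ASM3414082v1) lists 4 of the 6 names, on the chromosomes the identifiers give, but does not hold the deposited identifiers. Lists of other root regulators and of tissue markers could therefore not be matched. No sequences are shown. Alternatives were each library left out, loci on a single row, the 8 calli alone, quantile normalization, median-ratio scaling, a 2-fold limit, a robust spread, no intensity trend, no replicate block, no filter, a minimum mean of 5 FPKM, and pseudocounts of 0.1 and 5. Sign flips within stage for the paralog ratios were added after seeing the data.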

Additional observations from a re-analysis of the deposited data

Results flagged for a closer look

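In 11 of 36 pairs of a member and a comparison the cultivars moved in opposite directions, or 30.6%, against 32.8% over all loci tested in the same 6 comparisons; with 1 library per cultivar and stage the difference was not tested. Values are the log2(FPKM + 1) change in TNG67 minus that in IR64. For TF against T0, where 26.1% of all loci tested moved in opposite directions, the differences were 2.39 for SCR1 (1.72 in TNG67 and -0.66 in IR64), 2.17 for SCR2 (1.17 and -0.999) and 1.16 for CRL1 (0.73 and -0.43). For TS against TF (44.5% of loci) they were -2.53 for CRL1 (-0.47 and 2.05), 2.70 for CRL5 (0.49 and -2.21), -1.35 for SCR2 (-0.43 and 0.92) and 1.02 for SHR1 (0.58 and -0.44). For TS against T0 (32.1%) they were 2.26 for SCR1 (2.21 and -0.048) and 0.82 for SCR2 (0.75 and -0.080). For T2 against T1 (36.9%) they were 0.68 for SCR1 (0.024 and -0.66) and -0.50 for SHR2 (-0.083 and 0.41). For T1 against T0 and T2 against T0, 0 of 6 members moved in opposite directions, where 27.4% and 29.8% of all loci tested did.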

How the results depend on the processing

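The number of members called was 2 at T1, 0 at T2, 0 at TS and 1 at TF against the embryo, and 1 between the cultivars. Without the filter it was 0 at T1 and 0 at TF. Without the replicate block it was 1 at T1 and 0 at TF. At TF it was also 0 with a pseudocount of 5 and at a mean of at least 5 FPKM, where only 3 members were tested. With a pseudocount of 0.1 it was 1 at T2 and 1 at TS. Between the cultivars it was 2 after quantile normalization and 0 at a mean of at least 5 FPKM, where SHR2 was not tested. With each library left out in turn it ran from 0 to 4 at T1, 0 to 2 at T2 and TS, 0 to 1 at TF and 1 to 2 between the cultivars; a stage left with 1 library is assumed to vary like the others. For the members, the 0 calls of the comparisons among calli held in every alternative run. Without the filter a few of all 54170 loci were called there. These were 4 higher and 1 lower for T2 against T1, and 13 and 12 for TS against TF. For TS and TF against T1 and T2 they were 22 and 5. Between TS and TF in IR64, with no test, 0 members were at least 4-fold apart with a pseudocount of 5, against 2 as reported. The SHR1 to SHR2 difference of 1.67 was 2.75 with a pseudocount of 0.1, and the SCR1 to SCR2 difference ran from -0.54 to -0.18 with libraries left out. Sign flips with the stage as replicate block were an alternative added after seeing the data. Their smallest possible p is 0.0625, so they could not reach the threshold for either paralog ratio and decide nothing there.

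Fitted changes that turned sign were all uncalled. Those that turned under a setting were CRL1 at TF against T0 (-0.17 after quantile normalization), SHR1 between TS and TF (-0.0019 with median-ratio scaling), and, between the cultivars, CRL5 (0.28 with a pseudocount of 0.1, 0.066 on the 8 calli alone) and SCR1 (0.0064 with a pseudocount of 5, 0.048 after quantile normalization, 0.33 on the 8 calli alone). With libraries left out, SCR2 at TS against T0 ran from -0.28 to 0.95. At TF against T0, CRL1 ran from -0.94 to 1.23, SCR1 from -0.36 to 1.42 and SCR2 from -0.66 to 0.83. Between T2 and T1, CRL5 ran from -0.092 to 0.88, SCR1 from -0.64 to 0.013 and SHR2 from -0.26 to 0.585. Between TS and TF, CRL1 ran from -0.30 to 1.87, CRL5 from -1.77 to 0.0395, SCR1 from -0.049 to 1.15, SCR2 from -0.50 to 0.99 and SHR1 from -0.54 to 0.68. Between both regeneration stages and T1 and T2, CRL5 ran from -0.16 to 0.74. Between the cultivars, CRL5 ran from -0.51 to 0.16, SCR1 from -0.27 to 0.33 and SHR1 from -0.0501 to 0.64. The cause of these turns was not tested. Scaling moved the median change of all loci by under 0.1 in each comparison.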
